A study of Mus musculus with 11 samples.

Results

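The two-cell-like cells described here are the cells of a naive extra-embryonic endoderm (nEnd) culture that carried transcripts of the two-cell-stage gene program. They were chosen by 5 rule genes, Zscan4c, Zscan4d, Tcstv3, Gm5662 and Gm8300. A cell was taken as a member when it had at least 2700 unique molecular identifiers (UMIs, each standing for 1 captured transcript), at most 12% mitochondrial UMIs, and a sum of 5 or more UMIs over the rule genes. In all, 119 of 12011 cells that passed the depth and mitochondrial limits met this rule, 114 in the -4OHT library and 5 in the +4OHT library. The 114 were described against 3445 reference cells of the same library, which were epiblast-like (8 or more summed UMIs of Sox2, Nanog, Tdgf1 and Utf1) and held no rule-gene UMI.

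nEnd is a mouse cell culture that models the primitive endoderm of the blastocyst, derived from embryonic stem cells and kept on feeder fibroblasts in medium with Activin A, CHIR99021 and LIF. The single-cell libraries came from 1 line, EPUc, in which both Oct4 alleles can be inactivated by 4-hydroxytamoxifen (4OHT). Its cells were sorted for the endoderm surface marker PDGFRA and cultured without 4OHT (-4OHT) or with 4OHT (+4OHT), the comparison that asks what OCT4 does when endoderm gives rise to epiblast. Live cells were then put through a droplet 3′ assay as 1 library per condition, so differences between these libraries have no replicate check. The bulk libraries came from another line, an OCT4-mCherry reporter nEnd culture sorted on OCT4-mCherry and PDGFRA into Pdgfra+, double-positive (DP) and Oct4+ cells, with 3 libraries each. The study describes the bulk libraries of a group as biological replicates.

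Cells resembling the two-cell embryo arise now and then in mouse embryonic stem cell cultures. They switch on genes of zygotic genome activation, many of them in clustered families of near-identical copies: the Zscan4 zinc-finger genes linked to telomere maintenance, Eif1a-like genes related to a translation initiation factor, Tcstv and Tdpoz genes, the Usp17l deubiquitinases and Prame-like genes. The homeobox factor DUX (here the symbol Duxf3) activates this program, DPPA2 and DPPA4 act upstream of it, and chromatin factors such as TRIM28 and the CAF-1 complex restrain it.

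Promoter windows of 4 genes are shown because they belong to families that led the members' profile. Each runs from 250 bases before to 50 bases after the annotated start, taken from RefSeq for GRCm38.p6. They are Zscan4c (chr7:11005495-11005794, + strand), Zscan4d (chr7:11166099-11166398, - strand), the Eif1a-like gene Gm21319 (chr12:87775706-87776005, - strand) and Usp17lb (chr7:104842534-104842833, - strand). Capitals mark the letters TGATTNAAT, which followed by CA make the DUX motif, and the TATA-box letters TATAAA. The motifs do not overlap in these windows.
Zscan4c: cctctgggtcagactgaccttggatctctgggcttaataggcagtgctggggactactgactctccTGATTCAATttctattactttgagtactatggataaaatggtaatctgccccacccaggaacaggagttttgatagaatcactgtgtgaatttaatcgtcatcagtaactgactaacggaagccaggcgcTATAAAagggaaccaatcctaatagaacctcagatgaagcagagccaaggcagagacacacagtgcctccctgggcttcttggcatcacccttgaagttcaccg
Zscan4d: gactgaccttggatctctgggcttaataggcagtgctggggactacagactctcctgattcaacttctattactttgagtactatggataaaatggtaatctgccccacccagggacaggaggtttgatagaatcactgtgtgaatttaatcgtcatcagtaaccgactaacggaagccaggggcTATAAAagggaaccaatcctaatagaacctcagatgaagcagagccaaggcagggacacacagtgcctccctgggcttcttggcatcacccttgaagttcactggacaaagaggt
Gm21319: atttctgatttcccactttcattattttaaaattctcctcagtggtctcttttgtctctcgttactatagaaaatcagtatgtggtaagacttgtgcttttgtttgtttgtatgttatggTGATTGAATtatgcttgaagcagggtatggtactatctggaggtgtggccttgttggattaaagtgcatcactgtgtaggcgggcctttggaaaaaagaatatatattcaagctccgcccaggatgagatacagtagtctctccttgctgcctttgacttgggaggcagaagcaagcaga
Usp17lb: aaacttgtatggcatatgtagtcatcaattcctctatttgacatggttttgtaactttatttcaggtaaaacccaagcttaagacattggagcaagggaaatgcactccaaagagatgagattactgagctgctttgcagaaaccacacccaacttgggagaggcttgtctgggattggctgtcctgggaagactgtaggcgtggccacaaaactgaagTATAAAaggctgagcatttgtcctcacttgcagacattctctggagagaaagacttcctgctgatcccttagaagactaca

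Zscan4c held TGATTCAAT beginning 184 bases before its start and TATAAA beginning 54 before it. Zscan4d held TATAAA at 65 bases before its start and lacked the other motif. Gm21319 held TGATTGAAT at 130 bases, and Usp17lb held TATAAA at 31. The Zscan4c and Zscan4d windows were identical at 281 of 289 aligned bases (97.2%). Over all 32851 RefSeq windows of this length, counting both strands, TGATTNAAT was found in 236 (0.718%) and TATAAA in 4473 (13.6%), and the full DUX motif in 11 (0.0335%). Of the 20 windows of two-cell genes that were higher in the members or in the rule, the latter being Zscan4c and Zscan4d, 7 held TGATTNAAT (35.0%), 8 held TATAAA (40.0%) and 0 held the full DUX motif. Among the other genes higher in the members, 1 of 170 windows held TGATTNAAT, that of Duxf3 itself, and 23 of 170 held TATAAA (13.5%). Among the genes lower in the members, these were 0 and 9 of 107 windows. A match is a description of letters, near copies share their sequence, and only 38 of the 86 listed two-cell genes had a window.

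The 12011 cells came from 14179 barcodes, 5486 of 6896 in the -4OHT library and 6525 of 7283 in the +4OHT library. The targeted gene Pou5f1 (Oct4) was measured at 12.9 CPM (the summed UMIs of the gene scaled to a common total of the group) in endoderm-like cells without 4OHT and at 2.12 CPM with it. Endoderm-like cells, defined by 4 or more endoderm marker UMIs and fewer than 4 epiblast UMIs, numbered 1108 and 6140 in these libraries, and epiblast-like cells 3808 and 29. The libraries shared 21 barcodes, 0 of them members, and no doublet caller was run.

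Members were present in both conditions but at unequal shares. They made up 2.08% of the -4OHT cells (exact 95% interval 1.72 to 2.49) and 0.0766% of the +4OHT cells (0.0249 to 0.179). These intervals, and all others on counts below, cover counting error only. Within the -4OHT library the share was 1.94% of epiblast-like cells (1.53 to 2.43, 74 of 3808) and 2.38% of all other cells (1.71 to 3.23, 40 of 1678), 2 intervals that overlap. It was 0.181% of endoderm-like cells (0.0219 to 0.651, 2 of 1108). With 4OHT, 0 of 6140 endoderm-like cells were members, which allows a share of up to 0.0489%, and 0 of 29 epiblast-like cells, which allows up to 10.3%. Because so few epiblast-like cells were left with 4OHT, a lower share within that class was not detectable at this depth.

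**Figure D1:**
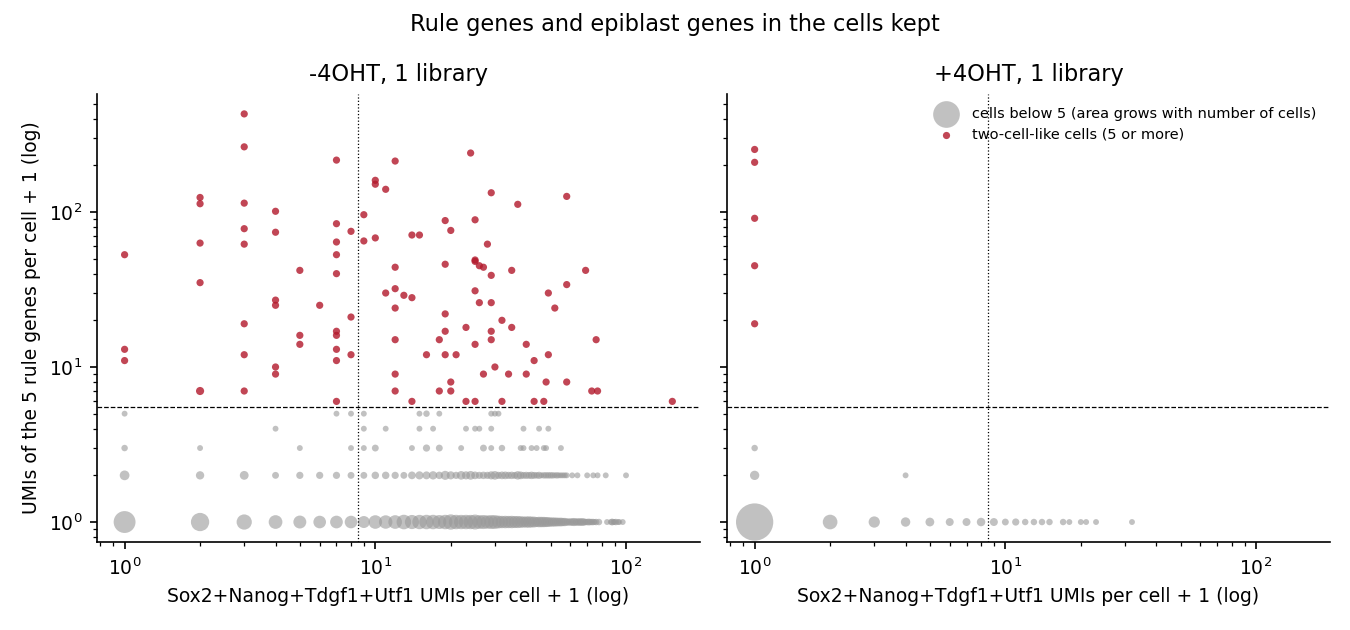
Each point is 1 pair of sums, with an area that grows with the number of cells that share it. Summed rule-gene UMIs + 1 are on the vertical log axis. Summed Sox2, Nanog, Tdgf1 and Utf1 UMIs + 1 are on the horizontal log axis, for -4OHT (left) and +4OHT (right). The dashed line marks 5 rule-gene UMIs and the dotted line 8 epiblast UMIs, so that 74 of the 114 two-cell-like cells without 4OHT lie on the epiblast side and all 5 with 4OHT on the other.

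The rule decided which barcodes could be members. Without 4OHT, 141 barcodes had 5 or more rule-gene UMIs, of which 19 were below 2700 UMIs and 8 were lost to the mitochondrial limit alone. That limit took 6.56% of cells that otherwise met the rule and 1.60% of cells that otherwise met the reference definition. Just outside the threshold, 23 cells with a sum of 3 or 4 held 0 to 26 UMIs (median 6) of two-cell genes that the rule did not use, 563 CPM in sum. Just inside it, 16 cells with a sum of 5 or 6 held 1 to 191 (median 17.5), 1370 CPM. The sum was 0 in 5015 cells and 1 in 303, in which the other two-cell genes had 63.0 and 88.8 CPM. With 4OHT, 6501 cells had a sum of 0, 17 a sum of 1 and 2 a sum of 2, and no cell had a sum from 3 to 9.

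The label Zscan4-positive was checked against the Zscan4 genes. A UMI of any Zscan4 family gene was found in 102 of the 114 members (89.5%), and 12 members held none. Gm5662 or Gm8300, 2 Eif1a-like genes, were seen in 112 members (98.2%), Zscan4c or Zscan4d in 93 (81.6%) and Tcstv3, a Tcstv family gene, in 47 (41.2%). The Eif1a-like pair gave 56.6% of all rule UMIs, the Zscan4 pair 30.7% and Tcstv3 12.6%. In 14 members every rule UMI came from Gm5662 or Gm8300, so the members are two-cell-like cells of which most, but not all, were positive for Zscan4.

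Members differed widely in how much of the program they carried. Their rule sums ran from 5 to 428, with a median of 23.5. All 5 rule genes were seen in 26 members, at least 3 in 85 and only 1 in 6. All listed two-cell genes together gave a median of 0.496% of a member's UMIs (0.0264% to 7.28%), against a median of 0.00413% in reference cells. By the rule the reference had no rule-gene UMI, and the members' levels are a description: 864 CPM for Gm8300, 604 for Gm5662, 541 for Zscan4d, 328 for Tcstv3 and 257 for Zscan4c.

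Each rule gene was also read in cells chosen by the other 4 alone. Zscan4d was then at 551 CPM and in 69.6% of 112 cells, against 0.851 CPM and 1.63% of their reference cells. Tcstv3, the least shared, was at 301 CPM and in 35.8% of 120 cells, against 0.593 CPM and 1.23%. Zscan4c was at 237 CPM against 0.442, Gm5662 at 641 against 1.16 and Gm8300 at 851 against 1.62. Reads from near-identical copies cannot be assigned with certainty to 1 of them, so values of single genes in the Zscan4, Eif1a-like, Tcstv, Usp17l and Prame families are less certain than the family sums.

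Of 5948 genes tested, with the rule genes left out, 280 were at least 2 times higher in the members (4.71%) and 143 at least 2 times lower (2.4%), with 20 CPM or more in the higher group. These shares over all genes tested are the ones to set beside the counts of each list below. The members were picked from these same cells, so the comparison is a description without a test. All 37 two-cell genes that reached 20 CPM in either group were among the 280, with log2 ratios of 3.13 to 11.10 and a median of 8.75, beside a median of -0.16 over all genes tested. These genes mostly passed the 20 CPM limit through the members and so had to be higher. Among the 74 epiblast-like members alone, 249 of 5953 genes were higher (4.18%) and 106 lower (1.78%), with all 30 two-cell genes tested among the higher. Of the 86 two-cell genes listed, 83 were in the files and 65 had a UMI. Their sum without the rule genes was 6232 CPM in the members, 56.6 in the reference and 85.2 in endoderm-like cells.

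**Figure D2:**
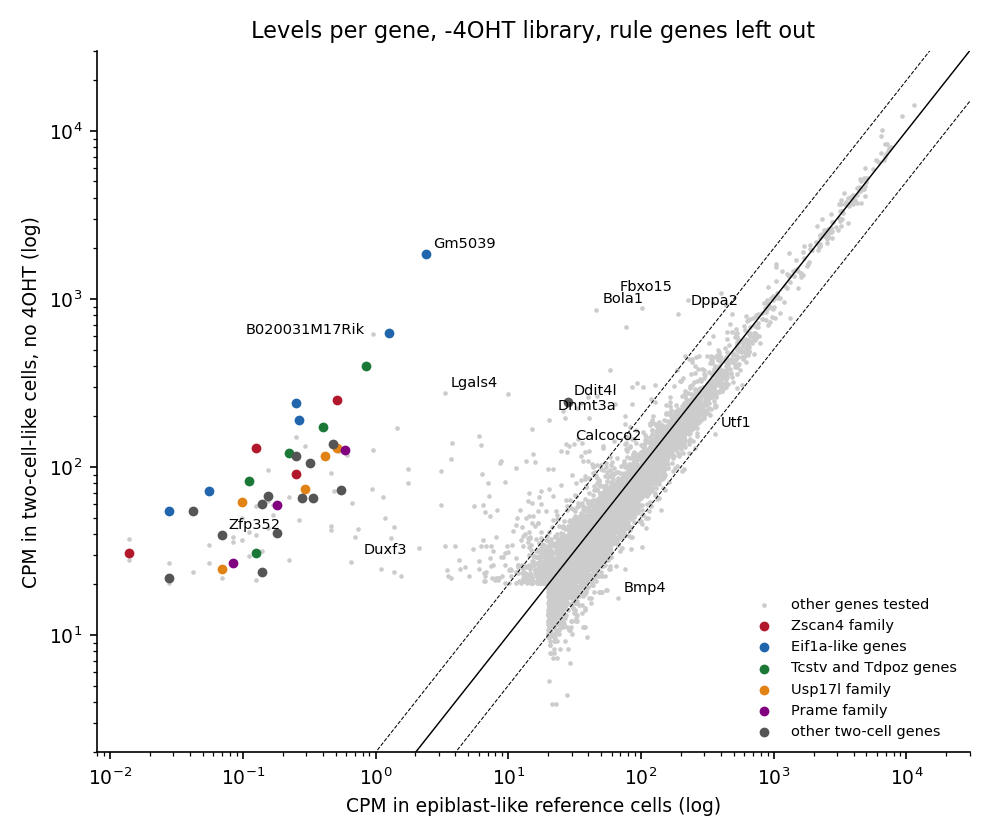
Each point is 1 gene tested, with its level in the 3445 reference cells on the horizontal axis and in the 114 two-cell-like cells on the vertical axis, both in CPM on log axes. The 37 genes of the 6 two-cell lists are coloured by list and all lie above the upper dashed line, which marks a ratio of 2.

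Zscan4 family genes other than the rule's were together at 531 CPM in the members and 0.964 in the reference, and all 4 tested were higher. Zscan4-ps2 was at 251 CPM against 0.517 and was seen in 71.9% of members against 0.987% of reference cells. Zscan4-ps1 had 130 CPM against 0.126, and Zscan4-ps3 had 90.7 against 0.252. Zscan4b had 63 UMIs over the members and 1 over the reference. Zscan4e and Zscan4f were seen less, with 38 and 19 UMIs in the members.

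The Eif1a-like genes were the largest family, at 3046 CPM against 4.29. Gm5039 alone had 1851 CPM in the members and 2.42 in the reference, a ratio of 766 (657 to 897). It was seen in 86.8% of members, 4.15% of reference cells and 3.43% of endoderm-like cells, whose median UMIs were 15938, 19500 and 14331. With every cell thinned to 2700 UMIs, these shares became 71.1%, 0.406% and 0.542%. The endoderm-like class set no limit on rule-gene UMIs and held 2 members, so its share cannot be read as background alone. Gm21319 had 626 CPM against 1.27 (ratio 492, 398 to 616) and Gm6803 had 241 CPM. Eif1a itself, the canonical gene, was at 159 CPM in the members and 224 in the reference (log2 ratio -0.49).

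Tcstv and Tdpoz genes summed to 827 CPM against 1.84, and all 5 tested were higher. Gm20767 had 398 CPM against 0.852 and was in 57.9% of members, and Tcstv1 had 173 against 0.405 and was in 34.2%. The deubiquitinase family Usp17l summed to 406 CPM against 1.40, again with all 5 tested higher. Usp17la was at 130 CPM against 0.517 (ratio 250, 177 to 364) and Usp17lc at 116 CPM, seen in 41.2% of members. Prame-like genes, which encode leucine-rich repeat proteins, summed to 224 CPM against 0.866, led by Gm13119 at 126 CPM against 0.587 and in 49.1% of members.

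The other listed two-cell genes summed to 1199 CPM against 47.2, and all 14 tested were higher. Tmem92, a transmembrane protein gene, was at 137 CPM against 0.475 and in 59.6% of members. Sp110, a nuclear body protein gene, had 106 CPM (ratio 331, 215 to 532) but was seen in only 21.9% of members. Arg2, mitochondrial arginase, had 73.2 CPM against 0.545. Zfp352, a zinc-finger gene of the two-cell embryo, had 39.3 CPM against 0.0699 and was found in 19 members (16.7%). Ddit4l, an inhibitor of mTOR signalling, differed least, at 245 CPM against 28.0 (ratio 8.76, 7.93 to 9.66), and 34.4% of reference cells held it. Trim43a, Trim43b and Trim43c had 0 to 2 UMIs each over the members.

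Among 7 tested regulators of the program, 2 were called higher and 0 lower. Duxf3 had 79 UMIs in the members, 38.3 CPM against 0.699 (ratio 54.8, 38.0 to 79.8), and was seen in 49 of them (43.0%), in 1.36% of reference cells and in 0 of 1108 endoderm-like cells. The 49 members with a Duxf3 UMI had a median of 30 rule UMIs and the other 65 a median of 17, but these were 14.7 and 12.6 per 10000 UMIs. Dppa2 was at 818 CPM against 190 (ratio 4.30, 4.08 to 4.52), whereas its partner Dppa4 was at 66.5 against 80.0 (ratio 0.831, 0.696 to 0.984). Smarca5, a chromatin remodeller, was at 624 CPM against 529, and Tbx3, a T-box factor gene of naive pluripotency, at 132 against 104. Nelfa, a transcription elongation factor subunit, was at 54.8 against 63.0 (ratio 0.870, 0.715 to 1.05), and the orphan receptor gene Nr5a2 at 15.5 against 23.1. Obox3 had 7 UMIs in the members.

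Of 23 repressors and chromatin assembly genes tested, 0 were called higher and 1 lower, beside 4.71% and 2.4% of all genes tested. The list had a median log2 ratio of -0.036. The gene called lower was Lin28a, which encodes an RNA-binding protein, at 19.9 CPM against 43.2 (log2 ratio -1.12). The corepressor gene Trim28 had 547 CPM in the members and 325 in the reference (log2 0.75). Chaf1b, a CAF-1 subunit, was at -0.81 and the histone methyltransferase gene Ehmt2 at -0.78 on the log2 scale.

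Outside the lists, the genes with the highest ratios were mostly unnamed or clustered genes. B020031M17Rik had 1282 UMIs in the members, 622 CPM against 0.964 (ratio 645, 506 to 834), yet 1 cell held 33.2% of these UMIs and 5 cells 62.1%. Gm21818 was at 150 CPM against 0.252 and BC147527 at 96.5 against 0.154. Inpp4b, a phosphoinositide phosphatase gene, was at 49.5 CPM against 0.0978 (ratio 506, 237 to 1290). Gm11232 had 77 UMIs in the members and 1 in the reference, A430089I19Rik had 58 and 1, and Vmn2r27, a vomeronasal receptor gene, had 55 and 2. The 12 genes of highest ratio also held Gm2075 (42 UMIs against 2), Gm21936 (125 against 7), Gm16368 (71 against 4), Slc10a6 (49 against 3) and Chrm3 (55 against 4).

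More widely seen genes were picked from the 280 after their values were known. Bola1, which encodes a mitochondrial iron-sulfur protein, had 1781 UMIs in the members, 864 CPM against 45.8 (log2 4.24), and was in 95.6% of members, 53.6% of reference cells and 52.3% of endoderm-like cells. Fbxo15, an F-box gene and OCT4 target, was at 884 CPM against 101 (log2 3.12), C1d at 684 against 77.7 and the cytoskeletal linker gene Dst at 987 against 228. Lgals4, a galectin gene, had 274 CPM against 3.31 (log2 6.37) and was in 71.1% of members against 5.78% of reference cells. Zfp560, a zinc-finger gene, had 272 CPM against 9.88 and was in 65.8% of members. Of the 280 genes, 99 had a UMI in at least as many members as not, 1 (Gm5698) had most of its UMIs in 1 member and 45 had most of them in 5 members.

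The 280 genes and the rule genes lay partly in groups on the chromosomes. Taking 3 or more of them with gaps of at most 500 kb in GRCm38 gave 8 groups holding 44 genes, 39 of the 280 and the 5 rule genes. The largest spanned chr12:87494721-88324026 and held 14 genes, Gm5662, Gm8300, Gm5039 and Gm21319 among them, of which 10 are in the two-cell lists. Of 21 annotated genes in this span, these 14 were the tested or rule genes. The Tcstv group, chr13:119893388-120318178, held 8 of 8 tested or rule genes, among 13 annotated. Of these 8, B020031M17Rik, Gm21818 and BC147527, which are in no list, sat between Tcstv1 and Tcstv3. The Zscan4 group, chr7:10900740-11614112, held 6 of 6, among 8 annotated. The Usp17l group, chr7:104768049-104862667, held 3 of 3, which were all the annotated genes of its span. A group on chr5:94302519-94626848 held A430089I19Rik, AA792892, Gm7682 and Gm6509, 4 of 4 among 7 annotated, of which only Gm7682 is in a list. Genes nearly silent in the reference could reach the 20 CPM limit for testing only through the members and so had to be higher. Full counts of tested genes in such groups were therefore largely set by that limit. They cannot be read as more complete than those of the remaining groups. The remaining groups did not hold every tested gene of their span. Socs4, Fbxo34 and Atg14 on chr14 were 3 of 6, and Hist1h3e, Hist1h3c and Hist1h3a on chr13 were 3 of 7. Gm10696, Them4 and Cgn on chr3 were 3 of 5.

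The 143 lower genes differed by much less. Tfap2c, an AP-2 transcription factor gene, was at 4.37 CPM in the members and 27.5 in the reference (log2 ratio -2.66, -3.79 to -1.73). Keap1, the adaptor that degrades NRF2, was at 3.88 against 22.9. Bmp4, a signalling ligand of the epiblast and trophectoderm, was at 16.5 against 66.9 (log2 -2.02, -2.55 to -1.54). The immediate early gene Egr1 was at 8.25 against 28.0, the RNA-binding gene Igf2bp2 at 11.2 against 38.2 and the retinoic acid receptor gene Rara at 11.2 against 36.9. The other 6 of the 12 lowest were Tor3a, Def6, Smagp, Urah, Rragd and Pgap1, with log2 ratios of -2.45 to -1.68. Keap1, Rara, Rragd and Pgap1 did not keep a ratio of 2 under every other setting.

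Pluripotency genes as a list summed to 8908 CPM in the members, 8762 in the reference and 3282 in endoderm-like cells. Of the 22 tested, 0 were called higher and 2 lower. The latter were Utf1, a chromatin-bound factor used to define the reference, at 158 CPM against 361 (log2 -1.19), and Eras, a Ras-like gene, at 16.5 against 40.5. Sox2 was at 221 against 337 (log2 -0.61) and was seen in 64.9% of members against 97.8%, while Nanog was at 303 against 177 (log2 0.78) and Tdgf1, a NODAL co-receptor gene, at 426 against 345. Pou5f1 was close in both, 42.7 CPM against 47.6. Klf2 had 450 CPM against 260, Klf4 had 130 against 255 and Rif1, a telomere and replication timing gene, 811 against 483. Sox2, Nanog, Tdgf1 and Utf1 are description only, since the reference had to hold 8 of their UMIs and the members did not. Among the 74 epiblast-like members, which met that limit, 1 of the 22 tested was called higher and 0 lower. The gene called was Nanog (log2 1.10), while Utf1 was at -0.85, Sox2 at -0.24 and Eras at -0.99994, just short of a call.

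Other markers of epiblast substates went different ways. Calcoco2, an autophagy receptor gene, was at 133 CPM against 28.8 (log2 2.21) and Cdx1, a caudal homeobox gene, at 54.8 against 115 (log2 -1.07), while Mylpf was at 625 against 664 and Ankrd31 at 31.0 against 46.3. Of 5 formative genes, Sox3 was higher (44.6 against 16.0) and Tcf15 lower (47.5 against 96.6). Of 9 DNA methylation genes, the de novo methyltransferase gene Dnmt3a was called higher (201 CPM against 76.0). The maintenance methyltransferase gene Dnmt1 was at 95.1 against 147 (log2 -0.63), and its partner Uhrf1 at 163 against 135. Utf1, Eras, Cdx1, Sox3, Tcf15, Dnmt3a and Lin28a, and among the markers below Eomes, had a ratio under 2 in at least 1 other setting.

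Meiosis and telomere genes had 3 of 12 called higher and 0 lower, beside 4.71% and 2.4% of all genes tested. Smc1b, a meiotic cohesin gene, had 103 UMIs in the members (log2 5.41), Sycp1, a synaptonemal complex gene, at 50.9 against 7.31 (log2 2.80) and Brca2, a recombination gene, at 99.9 against 43.2. Of 15 p53 targets, 3 were higher and 1 lower, beside the same shares of all genes. Pmaip1, a pro-apoptotic gene, was at 62.6 against 14.2, Plk2 at 51.4 against 15.5 and the antiproliferative gene Btg2 at 133 against 51.8, whereas Perp was at 11.2 against 29.6. Cdkn1a, the canonical p53 target, was at 113 against 115.

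None of the lists for the integrated stress response (9 genes), S phase (19), G2/M (20), ribosome biogenesis (20) or translation initiation (21) had a gene called in either direction. The S phase list had a median log2 ratio of -0.28 and the G2/M list one of -0.033, beside -0.16 over all genes. Ribosomal protein genes had 2 of 83 called higher, beside 4.71% of all genes tested. The ribosomal protein genes summed to 269130 CPM in the members and 265950 in the reference. Members had fewer genes detected at equal depth, a median of 1195 genes per 2700 UMIs against 1303. Mitochondrial UMIs were 7.34% in the median member, 5.14% in the reference and 6.47% in endoderm-like cells, and whether this difference or that in detected genes had a part in the results was not tested.

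Markers of other cell types were low in the members. Endoderm markers summed to 994 CPM in the members, 782 in the reference and 18423 in endoderm-like cells, and 1 of the 8 tested, Amn, was called higher (32.0 CPM against 15.0), with 86.4% of its UMIs in 5 cells and a log2 ratio of -0.62 after thinning. Trophectoderm markers summed to 85.9 CPM against 151 in the reference and 790 in endoderm-like cells. Of 3 tested, 2 were lower, among them Eomes, a T-box factor, at 16.5 against 42.3. Feeder fibroblast markers summed to 239 CPM against 293, 0 members met the fibroblast definition of 4 marker UMIs, and the highest sum in a member was 2. A sum of 2 or more UMIs over Cdx2, Gata3, Elf5 and Eomes was seen in 7 members, with 9 as the highest.

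Among epiblast-like cells, levels were also read by rule sum. The other two-cell genes were at 56.6 CPM in 3445 cells with a sum of 0, 79.2 in 244 with 1, 420 in 45 with 2 to 4, 1352 in 20 with 5 to 9, 2340 in 25 with 10 to 29 and 8929 in 29 with 30 or more. The Zscan4 family went from 0.964 through 1.89, 21.7, 72.4 and 162 to 775 CPM. Cells below the threshold therefore already carried more of the program than cells with no rule UMI. The Tcstv and Usp17l families were near level between sums of 5 to 9 and 10 to 29, and the Prame-like genes did not follow this order, with 37.9 CPM at a sum of 2 to 4 and 7.01 at 5 to 9.

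Genes outside the families followed the same order to differing degrees. Bola1 went from 45.8 CPM at 0 through 58.6, 226, 507 and 707 to 1152 in cells with 30 or more rule UMIs. Dppa2 went from 190 through 190, 432, 675 and 829 to 993, and Duxf3 from 0.699 through 0.859, 5.41, 18.7 and 20.3 to 46.0. The pluripotency genes had no single order. Nanog was highest at a sum of 5 to 9, at 476 CPM, against 177 at 0 and 333 at 30 or more, and Tdgf1 was highest there too, at 738 CPM. Sox2 stayed between 280 and 355 CPM up to a sum of 29 and was at 200 above it, while Utf1 was at 361 at 0, 226 at 2 to 4 and 156 at 30 or more. Bmp4 was at 66.9, 63.4, 31.4, 30.4, 28.4 and 11.5 CPM from the lowest to the highest sum. Median UMIs were 19500 at 0, 21107 at 2 to 4 and 17358 at 30 or more.

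**Figure D3:**
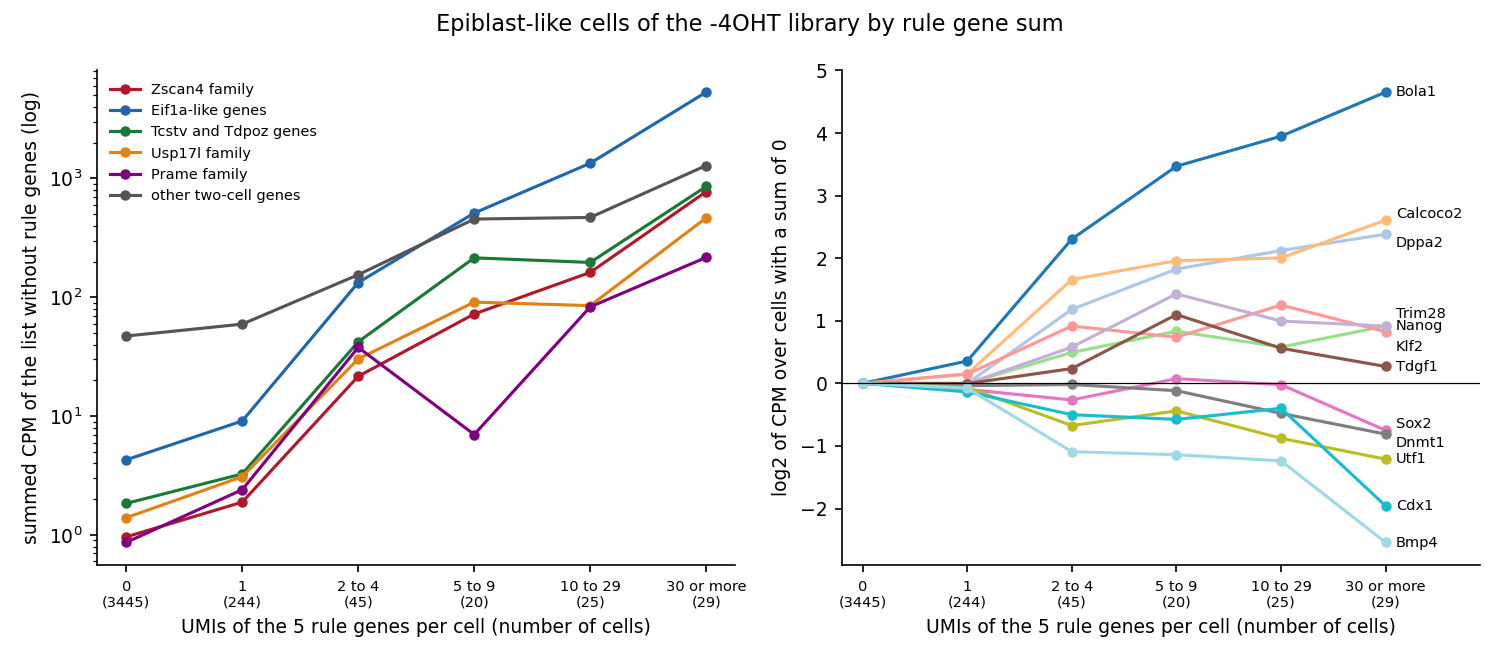
For epiblast-like cells of the -4OHT library grouped by rule-gene sum, the left panel plots the summed CPM of each of the 6 two-cell lists on a log axis, and the right panel the log2 level of 12 genes relative to cells with a sum of 0. Cells with a sum of 2 to 4 already stand above those with 0, and Bola1 and Dppa2 go up through all later groups while Bmp4, Utf1 and Cdx1 end lowest.

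The members were also ordered by rule UMIs per 10000 UMIs of the cell and split into 3 equal parts of 38, a split of a continuous range (0.885 to 335, median 13.3) and not into types. The cuts were at 7.52 and 27.7, with 12 and 4 members within 10% of them. From the low through the middle to the high part, the two-cell genes outside the rule were at 1374, 4271 and 16801 CPM. Duxf3 was at 21.3, 28.6 and 79.2 CPM, and Zfp352 at 7.11 in the low and 77.3 in the high part. Bola1 was at 614, 733 and 1449 CPM and Dppa2 at 636, 813 and 1122.

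Epiblast genes went the other way. Sox2 was at 282, 227 and 112 CPM, against 337 in the reference, and Utf1 at 216, 150 and 75.3. Nanog was at 365, 267 and 249 CPM, all above the reference level of 177. Tet1, a methylcytosine dioxygenase gene, was at 263, 217 and 77.3 CPM, against 274 in the reference. Bmp4 was at 27.3, 10.0 and 7.73 and Cdx1 at 83.0, 44.3 and 23.2. Not every pluripotency gene followed, since Dppa5a, an RNA-binding protein gene, was at 4204, 4589 and 5022 CPM, around its reference level of 4683. Dnmt1 had no order among the parts, at 126, 70.0 and 79.2 CPM, all below the reference.

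Depth and quality measures moved with this split. Median UMIs per cell were 20538, 16124 and 12449 in the low, middle and high parts. The ordering divides rule UMIs by the UMIs of the cell, so depth is not independent of it. Genes per 2700 UMIs were 1285.5, 1200.5 and 1132.5, and mitochondrial UMIs 6.47%, 7.41% and 8.61%. Of the 38 cells in each part, 29, 26 and 19 were epiblast-like. The part of these measures in the differences above was not tested.

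**Figure D4:**
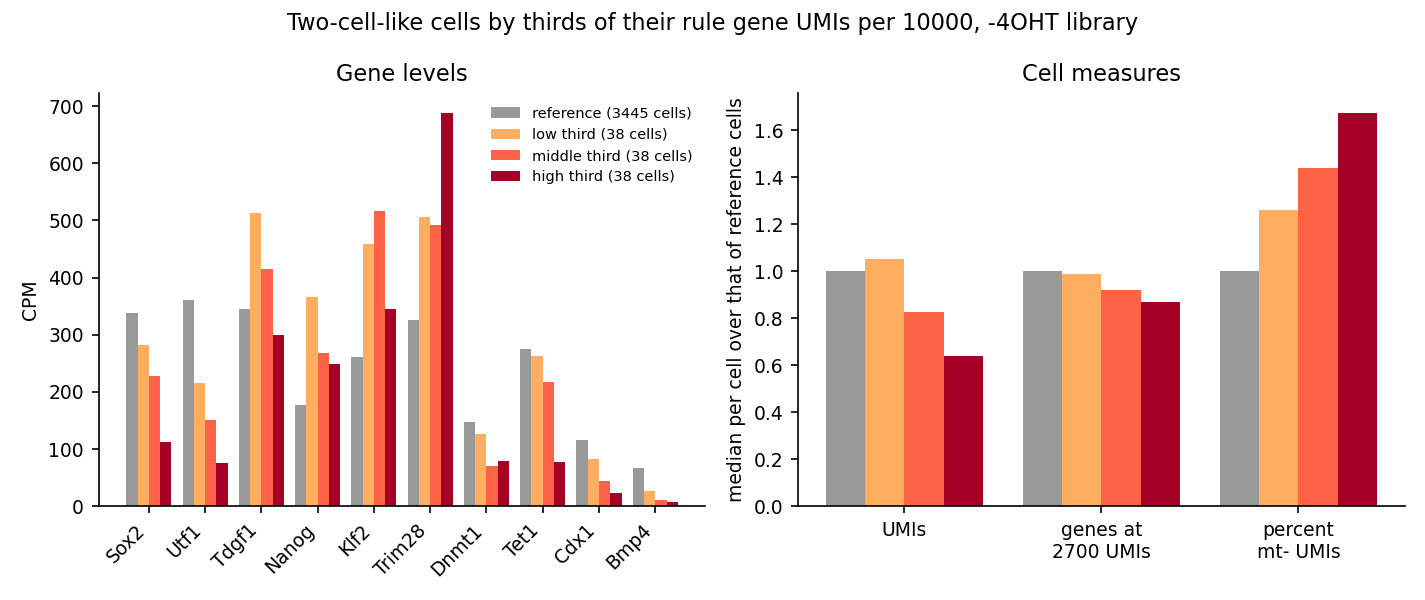
The left panel gives the CPM of 10 genes as bars from 0 in the reference and in the low, middle and high parts of the 114 two-cell-like cells, ordered by rule UMIs relative to all UMIs. The right panel gives the medians of UMIs, genes per 2700 UMIs and mitochondrial percent relative to the reference, where the high part has the fewest UMIs (12449) and the highest mitochondrial percent (8.61).

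By marker sums, 73 of the 114 members were epiblast-like only, 4 met the endoderm limit only, 1 met both and 36 met neither. The 36 carried more of the program than the 74 epiblast-like members. Their Zscan4 genes were at 1143 CPM against 381, Eif1a-like genes at 4737 against 2697, Tcstv and Tdpoz genes at 2209 against 464 and Usp17l genes at 1029 against 238, while in 403 cells of the same kind with a rule sum of 0 these were at 1.41, 4.94, 3.30 and 4.00. Zfp352 was at 123 CPM in the 36 and 17 in the 74. Nanog was at 83.3 against 380 and Sox2 at 27.8 against 286, levels the marker limit itself set. Dppa2 was alike in both, 837 and 851 CPM, and at 126 in the 403 cells.

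The 36 did not carry the endoderm profile of the 403 cells around them. Their endoderm list summed to 331 CPM, against 478 in the epiblast-like members and 4551 in the 403 cells. The whole pluripotency list was at 6888 CPM in the 36, 9723 in the 74 and 5445 in the 403, and Dppa5a at 4341, 4689 and 3505. The 36 were shallower, with a median of 11478 UMIs against 18046 in the 74 and 9973 in the 403. They also had fewer genes per 2700 UMIs, 1131.5 against 1245 and 1274, and more mitochondrial UMIs, 9.45% against 6.89% and 6.35%. The 5 members at or past the endoderm limit had endoderm marker sums of 4, 6, 9, 11 and 15, with rule sums of 13, 24, 20, 111 and 8.

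With 4OHT the 5 members had rule sums of 18, 44, 90, 208 and 252 among 7410, 22605, 15029, 10649 and 36090 UMIs. None held a UMI of Pou5f1, Sox2, Nanog, Tdgf1 or Utf1, and for each gene a count of 0 among their 91783 UMIs allows up to 32.7 CPM. Sox2 was at 221 CPM and Pou5f1 at 42.7 over all -4OHT members, both above that limit, but at 27.8 and 25.4 CPM in the 36 -4OHT members that likewise met neither marker definition, both below it. A difference from these 36 was not detectable at this depth for either gene. Endoderm marker sums were 0 to 2, below the endoderm limit of 4. The 5 cells met neither the epiblast nor the endoderm definition. Summed over Cdx2, Gata3, Elf5 and Eomes, 2 of them had 2 or more UMIs, with 5 as the highest. That sum leaves out the keratin genes Krt8 and Krt18. They had 5 and 38 UMIs in the cell with a rule sum of 252, 4 and 6 in that with 44 and none in the others. The whole trophectoderm list was at 806 CPM in the 5 cells, 85.9 in the -4OHT members and 1187 in endoderm-like cells with 4OHT.

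The rest of the program was present in the 5 cells. Their two-cell genes outside the rule summed to 13750 CPM, and the Zscan4, Eif1a-like, Tcstv and Tdpoz, Usp17l and Prame-like lists to 676, 5720, 2168, 1460 and 697 CPM, which are sums led by single cells. The cells differed in their families. Zscan4c and Zscan4d were seen in 3 of them, with 7 and 7, 16 and 20, and 29 and 26 UMIs, and the cell with a rule sum of 252 owed 248 of these UMIs to Tcstv3 and none to Zscan4c or Zscan4d. Gm5039 had 24, 119, 11, 125 and 31 UMIs, in the order of the rule sums. Bola1 had 6, 93, 101, 14 and 249 UMIs, 5045 CPM in all, and Zfp560 was seen in 4 of 5. Duxf3 had 1 UMI in 1 cell and Zfp352 none. With 5 cells of 1 library, differences from the -4OHT members are given as values only.

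The same genes were read in the bulk libraries, which the rule did not use. Here the question is whether the sorted populations differ in the program. DP and Pdgfra+ cells differ in the OCT4-mCherry gate, Oct4+ and DP cells in the PDGFRA gate, and Oct4+ and Pdgfra+ cells in both. The quasi-likelihood test of edgeR over all 9 libraries was used, calling a gene at an adjusted p (Benjamini-Hochberg) below 0.05 and a log2 change past 1.5. Of the 86 listed two-cell genes, 39 could be tested, and 35 were higher and 2 lower in Oct4+ than in Pdgfra+ cells, where 17.3% of all genes tested were higher and 14.7% lower (32.0% either way). The median log2 change of the 39 was 7.94, or 7.58 with genes at 0 reads in a group set at their bound, against 0.0136 over all genes. Only Usp17lc was higher in DP than in Pdgfra+ cells, or 9 genes with the replicate number as a block, which pairs these groups, where 3.2% of all genes were higher and 0.691% lower (3.89% either way), with a median of 2.44. Between Oct4+ and DP cells, 34 were higher in Oct4+ and 1 lower, beside 14.6% and 13.1% of all genes (27.7% either way), with a median of 5.43. In sorted populations, fewer cells with the program and less RNA per cell cannot be told apart, and the 3 comparisons share their libraries. Many two-cell genes were near 0 outside Oct4+ cells and passed the filter on low counts through the Oct4+ libraries. Such genes had to be higher in Oct4+. The counts of higher genes in Oct4+, here and by family below, were therefore largely set by the filter.

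The Zscan4 family rose in Oct4+ cells, with 9 of 9 tested genes past the threshold against either other group. In DP against Pdgfra+ it was 0 of 9, in the fit that does not pair these groups. With the replicate number as a block, 9 genes of all two-cell lists were called in DP over Pdgfra+ in place of 1. Zscan4c was at 42.6, 99.4 and 190 CPM (reads scaled to a common library size) in Oct4+ 1 to 3, at 0.125, 2.48 and 0.654 in DP and at 0.366, 0.0996 and 0.104 in Pdgfra+. No Oct4+ value overlapped the other groups, as held for 69.3% of all genes against Pdgfra+ and 62.6% against DP, and its log2 change over Pdgfra+ was 9.15 ± 0.93 (SE, adjusted p = 2.5e-05). Zscan4d was at 95.3, 226 and 389 CPM in Oct4+, 2.37, 6.61 and 1.96 in DP and 0.366, 0.996 and 0.313 in Pdgfra+ (8.66 ± 0.75, adjusted p = 1.1e-05). All DP values of Zscan4d lay above all Pdgfra+ values, without a call in the unpaired fit, and 34.2% of all genes did not overlap between these groups. The family sum was 446, 1021 and 1779 CPM in Oct4+, 8.48, 25.8 and 11.4 in DP and 1.22, 4.88 and 1.57 in Pdgfra+.

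Other families rose with it. Tcstv3 was at 7.21, 32.4 and 32.9 CPM in Oct4+, 0.499, 0.354 and 0.131 in DP and 0.122, 0.0996 and 0 in Pdgfra+ (log2 8.14 ± 0.87 over Pdgfra+, adjusted p = 3.3e-05), and 6 of 6 Tcstv and Tdpoz genes were called. Tcstv1 had no read in Pdgfra+ and was at least 14.9-fold higher in Oct4+. All 5 Usp17l genes were called, with Usp17la at 55.1, 54.8 and 228 CPM in Oct4+, 0.623, 2.48 and 1.57 in DP and 0.122, 0.199 and 0 in Pdgfra+ (9.86 ± 0.97, adjusted p = 2.1e-05). Usp17lc was the gene called in DP over Pdgfra+, at 1.37, 4.96 and 1.44 CPM against 0, 0.299 and 0.522 (3.14 ± 0.79, adjusted p = 0.044). That call was lost without any 1 of DP 2, DP 3, Pdgfra+ 1, Pdgfra+ 2 or Pdgfra+ 3, when 0 two-cell genes were called, while 4 were called without DP 1. Gm5662, Gm8300 and most Eif1a-like and Prame-like genes were not tested here, since their symbols were not matched in the table.

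Among the other two-cell genes, Zfp352 was at 13.1, 25.1 and 19 CPM in Oct4+, 0.125, 0.236 and 0.261 in DP and 0, 0.299 and 0 in Pdgfra+ (7.31 ± 0.69, adjusted p = 1.6e-05). Tmem92 was at 48.8, 124 and 150 CPM in Oct4+, 1.12, 4.84 and 2.09 in DP and 0.244, 0.399 and 0.313 in Pdgfra+. The genes that fell were Chit1, a chitinase gene, with a log2 change of -2.35 ± 0.83 over Pdgfra+ (adjusted p = 0.030), and Isg20, an exonuclease gene (-1.69 ± 0.60, adjusted p = 0.031). Chit1 was low in both groups, at 0.0775, 0.296 and 0.111 CPM in Oct4+ and 1.83, 0.398 and 0.418 in Pdgfra+, so its change rests on few reads. In the single-cell members Chit1 was higher than in the epiblast-like reference, a different baseline, with 65.0 CPM against 0.279. Ddit4l, at log2 1.18 (adjusted p = 0.00044), missed the fold threshold.

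The regulators were less uniform, with 5 of 7 higher in Oct4+ than Pdgfra+, 2 of 7 in DP over Pdgfra+ and 4 of 7 in Oct4+ over DP. Of all genes tested, 17.3%, 3.2% and 14.6% were higher in these comparisons. Duxf3 was at 4.73, 8.18 and 8.87 CPM in Oct4+, 0.125, 0.826 and 0.131 in DP and 0 in all Pdgfra+ libraries, which makes it at least 67.3-fold higher in Oct4+ (adjusted p = 0.00017). Dppa2 was at 157, 118 and 145 CPM in Oct4+, 18.7, 35.0 and 47.7 in DP and 6.71, 4.58 and 2.92 in Pdgfra+, so that each group stood apart (DP over Pdgfra+ log2 2.84 ± 0.37, adjusted p = 0.010). Dppa4 had the same order, with log2 changes of 3.62 for Oct4+ and 2.38 for DP over Pdgfra+. Nelfa was at 219, 411 and 325 CPM in Oct4+ but at 58.5, 64.2 and 61.7 in DP and 56.0, 59.1 and 60.3 in Pdgfra+, which overlap (2.44 ± 0.21 for Oct4+ over Pdgfra+, adjusted p = 8.5e-06, and 0.07 for DP). Nelfa thus rose in sorted Oct4+ cells over the PDGFRA-positive groups. Single two-cell-like cells had 54.8 CPM against 63.0 in other epiblast-like cells, which is a different baseline.

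**Figure D5:**
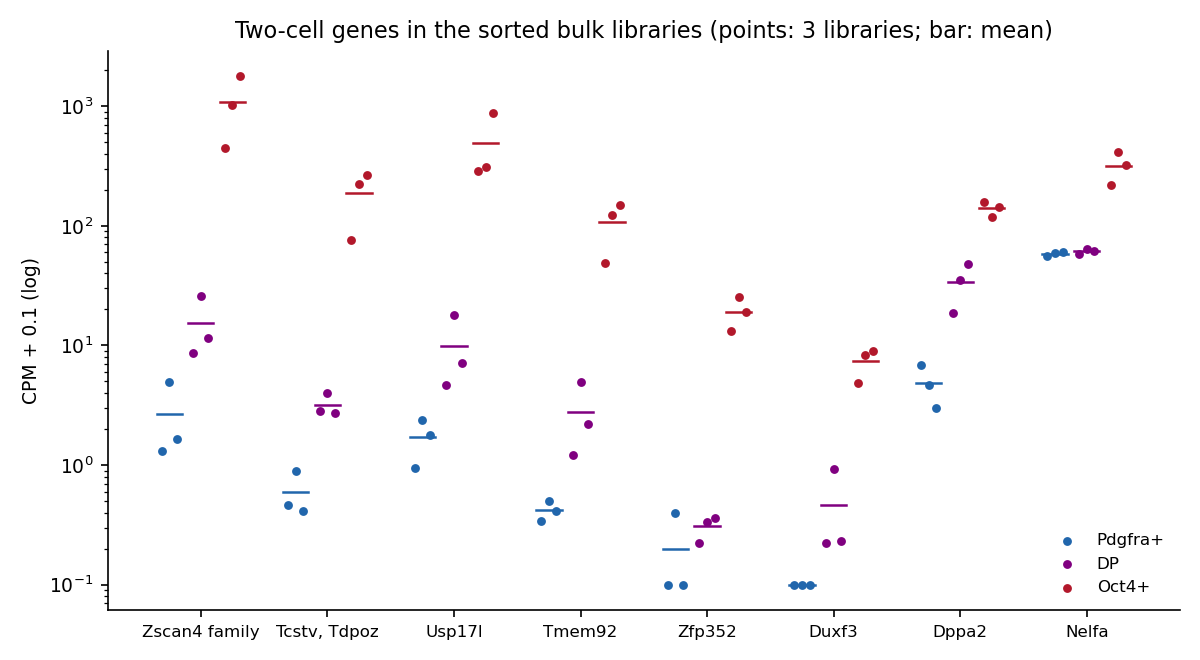
Points give CPM + 0.1 on a log axis for each of the 3 Pdgfra+, DP and Oct4+ libraries, with a bar at the group mean, for summed gene families and single genes of the two-cell program. Oct4+ libraries lie above all others for each family and gene shown, and DP and Pdgfra+ libraries overlap for Zfp352 and Nelfa.

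The Oct4+ libraries were not alike. Summed two-cell genes were at 1213, 2475 and 3921 CPM in Oct4+ 1 to 3, against 109, 152 and 139 in DP and 83.4, 81.6 and 68.4 in Pdgfra+. The epiblast rule genes were at 1955, 1543 and 1450 CPM in Oct4+, 79.5, 253 and 89.8 in DP and 15.1, 29.3 and 11.9 in Pdgfra+, an order among Oct4+ libraries opposite to that of the two-cell genes. The 12 fibroblast markers summed to 1317, 663 and 1073 CPM in Oct4+, 189, 115 and 164 in DP and 259, 166 and 572 in Pdgfra+. Most of the Oct4+ sum was Fn1 (1067, 562 and 964 CPM), a fibronectin gene that 96.8% of the single-cell reference cells also held. Without Fn1 the list was at 251, 101 and 109.5 CPM in Oct4+, 101, 57.8 and 88.4 in DP and 207, 126 and 434 in Pdgfra+. The defining markers Col1a1, Col1a2, Col3a1 and Thy1 summed to 136, 21.0 and 7.32 CPM in Oct4+, 3.24, 6.49 and 3.14 in DP and 1.22, 2.59 and 11.9 in Pdgfra+, and their part in the results was not tested.

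Genes found in the members but outside the two-cell lists were then read in bulk. Of 243 such higher genes, 207 could be tested, and 94 (45.4%) rose and 12 (5.80%) fell in Oct4+ over Pdgfra+ cells, beside 17.3% and 14.7% of all genes. Of the 140 tested genes that were lower in the members, 56 (40.0%) also rose and 14 (10.0%) fell, shares that were not tested against the former. In DP over Pdgfra+, 14 (6.76%) of the higher and 16 (11.4%) of the lower genes rose, beside 3.2% of all genes. Of the 12 genes with the highest ratios, 5 could be tested and all rose in Oct4+ over Pdgfra+: Gm21818 (log2 8.44), BC147527 (7.95), Gm11232 (6.93), Inpp4b (3.86) and Chrm3 (3.72). None of the 5 was called in DP.

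Widely seen member genes differed in bulk. Zfp560 was at 41.6, 83.6 and 130 CPM in Oct4+, 6.61, 8.14 and 5.49 in DP and 5.49, 3.49 and 5.74 in Pdgfra+ (4.12 on the log2 scale, adjusted p = 2.4e-05). Fbxo15 was at 442, 489 and 522 CPM in Oct4+, 117, 131 and 154 in DP and 80.2, 65.9 and 60.0 in Pdgfra+ (log2 2.82). Lgals4 was at 32.1, 91.3 and 63.4 CPM in Oct4+ and 61.2, 56.3 and 122 in DP, which overlap, both above 18.3, 5.38 and 11.4 in Pdgfra+ (DP over Pdgfra+ log2 2.78, adjusted p = 0.019). Bola1, seen in 109 of the 114 members, had 9.07, 16.8 and 11.6 CPM in Oct4+ and 7.45, 8.77 and 7.72 in Pdgfra+, which was not a call (log2 0.64, adjusted p = 0.057).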

How the data were processed

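The authors made the single-cell counts with Cell Ranger (6.1.2 per the file headers; mm10) and deposited whole UMI counts per gene and barcode for 32285 genes. The bulk table holds read counts per gene deposited by the authors without normalization (8019631 to 11642571 reads per library, 48952 genes; aligner, counter and build not given in the sources used here), and its 35 blank lines were left out. The members and gene lists were chosen with earlier results of these data known. Named genes were the rule and epiblast genes, two-cell genes and regulators with 20 CPM in either group, the 12 genes of highest and the 12 of lowest ratio outside them (20 CPM, UMIs in 10% of cells), up to 4 genes each way of every other list and single genes of these lists; others are said to be chosen after their values were seen. UMIs were summed per group with Python 3.11.15, NumPy 2.4.6, SciPy 1.17.1 and pandas 2.3.3. Ratios have exact conditional binomial 95% intervals and shares exact Clopper-Pearson ones. With 1 library per condition no test between cells was made, and a count of 0 was given a floor of 3 counts. Thinning drew 2700 UMIs per cell. Bulk counts were fitted with edgeR 4.0.16 (R 4.3.3), all 9 libraries in 1 quasi-likelihood model with TMM scaling and filterByExpr (14185 genes). Steps were tested on simulated data. Replicate numbers were checked for pairing: deviations of same-numbered DP and Pdgfra+ libraries correlated across genes (0.271, 0.477 and 0.321), so the numbers pair those groups, and those of Oct4+ libraries with Pdgfra+ (0.0383, -0.00412 and -0.0465) or DP (0.0222, -0.0728 and 0.152) did not. Alternatives included DESeq2 1.42.0, other filters, a replicate block and leaving out each library.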

Additional observations from a re-analysis of the deposited data

How the results depend on the processing

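The number of members depended on the limits: with at most 6% mitochondrial UMIs there were 32 and 1 (0.970% of epiblast-like cells without 4OHT), with a sum of 3 or more the share of epiblast-like cells was 2.44%, with 10 or more 1.42% and without Gm8300 1.52%. Of the genes called against the reference, thinning gave 432 higher and 685 lower, and 50 CPM gave 156 and 41. Lower genes numbered 242 with a sum of 10 or more, 281 from mean CPM per cell and 75 after centring on the median. Amn alone turned, to -0.62 on the log2 scale with thinning, and of 2916 values of named genes 2618 moved by less than their counting interval; the settings that moved most were at most 6% mitochondrial UMIs (88 of 162 genes) and thinning (70 and Amn). In bulk, a minimum of 10 CPM gave 2476 genes and 24 two-cell genes for Oct4+ over Pdgfra+, 338 genes for DP over Pdgfra+, and 2153 and 23 for Oct4+ over DP, as fewer genes were tested. DP over Pdgfra+ was the least settled: DESeq2 called 914 genes and 16 two-cell genes, and no filter 1023 and 21, and the cause was not tested. With the replicate block, which pairs these groups, 9 two-cell genes were called in place of 1 (7 in a blocked fit of the 6 libraries alone, added after seeing the data), and 2 with 6 libraries and no block. In the fits of all 9 libraries no other count of calls moved by over 1.5 times with the block, and all genes called in DP over Pdgfra+ went from 552 to 598 (from 407 to 713 in the fits of 6 libraries). Leaving out 1 library gave 57 (without Pdgfra+ 3) to 728 (without DP 1) genes against 552, also 124 without DP 2, 121 without DP 3, 363 without Pdgfra+ 1 and 148 without Pdgfra+ 2, and 0 to 4 two-cell genes. The ranges were 4579 to 4949 genes and 34 to 37 two-cell genes for Oct4+ over Pdgfra+ and 3920 to 4369 and 35 to 35 for Oct4+ over DP. Calls were lost under some settings for Chit1, Isg20 and Pif1 (Oct4+ over Pdgfra+) and Usp17lc (DP over Pdgfra+), where 21 other genes were gained. Members rest on 2061623 UMIs in 1 library.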
